A study of Mus musculus with 2 samples.

Results

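The far intergenic CHD2 peaks of ES-E14 mouse embryonic stem cells are the subject here. They are the peaks of the optimal mm10 list on the numbered autosomes whose summit lay outside every protein-coding gene body and over 50 kb from the nearest protein-coding 5′ end. The rule used position only. It kept 963 of the 8134 optimal peaks on the autosomes, or 11.8% (95% Clopper-Pearson interval 11.1% to 12.6%). The other 7171 peaks were placed in 4 classes by the same annotation: 1042 intergenic peaks 10 to 50 kb from a 5′ end, 1612 in gene bodies over 10 kb from one, 1682 at 1 to 10 kb and 2835 promoter peaks within 1 kb.

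CHD2 was measured by ChIP-seq in 1 group, ES-E14 cells of strain 129/Ola (from a male embryo, with no treatment named in the labels), in 2 biological replicates. Both replicates come from the same cell line, so the spread between them is that between cultures of 1 line. No treatment, genotype or time was compared, and no test was run. Regions of 1 library are not replicates, and each interval covers the counting error of peaks only.

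CHD2 is an ATP-dependent chromatin remodeller of the chromodomain helicase family, known to bind active promoters and to help deposit the histone variant H3.3. Enhancers, the regulatory elements that act on promoters from a distance, often lie in the space between genes, and in embryonic stem cells many of them are bound by OCT4 and SOX2. Much of that space also consists of copies of transposable elements, which can carry binding sites of their own.

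The sequence at the summits is shown first. It was read from the mm9 genome with the authors' mm9 list, in which the same rule kept 458 of 4517 autosomal peaks, 10.1% (9.27% to 11.1%). All coordinates in the next lines are mm9, each stretch is 81 bases centred on the summit and is written 5′ to 3′, and genes are named as in GENCODE M1. The first set holds far intergenic peaks with a run of 12 bases that recurred at these summits. Capitals mark the run CAACCTGTGGGT and the core GGTCNCGAC, read on either strand with N as any base, whose first bases overlap the end of the run. Oxr1 is shown because its peak, the strongest of this set, carries the core without an exact match to the run.
Oxr1, chr15:40994634-40994714, plus strand: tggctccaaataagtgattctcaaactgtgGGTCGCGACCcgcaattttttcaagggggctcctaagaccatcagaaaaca
Ubl3, chr5:149556723-149556803, minus strand: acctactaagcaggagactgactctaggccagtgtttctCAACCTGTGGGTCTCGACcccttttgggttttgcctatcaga
Slc1a3, chr15:8552532-8552612, plus strand: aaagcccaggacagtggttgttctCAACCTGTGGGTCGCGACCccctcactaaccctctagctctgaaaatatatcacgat
Zfp36l1, chr12:81085540-81085620, plus strand: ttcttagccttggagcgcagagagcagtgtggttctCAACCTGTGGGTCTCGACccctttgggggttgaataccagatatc
Zfp281, chr1:138574584-138574664, minus strand: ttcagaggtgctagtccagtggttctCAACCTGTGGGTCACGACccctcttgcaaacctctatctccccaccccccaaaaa
Arid1b, chr17:4935435-4935515, plus strand: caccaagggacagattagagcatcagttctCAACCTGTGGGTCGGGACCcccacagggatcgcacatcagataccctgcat

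The next set holds the other 4 of the 6 strongest far intergenic peaks of the mm9 list, where Oxr1 and Ubl3 are the remaining members. Capitals mark CCAAT, the box bound by the transcription factor NFY.
Gm6712, chr17:17371692-17371772, plus strand: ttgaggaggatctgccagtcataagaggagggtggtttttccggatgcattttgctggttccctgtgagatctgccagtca
BC002059, chr17:17141898-17141978, plus strand: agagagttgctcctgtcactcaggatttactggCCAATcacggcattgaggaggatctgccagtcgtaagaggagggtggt
Glce, chr9:61970471-61970551, plus strand: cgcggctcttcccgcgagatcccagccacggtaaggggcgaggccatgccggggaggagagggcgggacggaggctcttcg
Ccdc99, chr11:34713021-34713101, plus strand: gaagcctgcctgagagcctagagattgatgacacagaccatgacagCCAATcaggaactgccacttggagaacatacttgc

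The last set shows far intergenic summits with the composite Oct-Sox letters TTGTNATGC or the octamer ATGCAAAT, both in capitals. OCT4 and SOX2 bind the composite letters side by side in embryonic stem cells. The Ahr and Hnf4g stretches also resemble each other in the bases before these letters. A summit upstream of Nr5a2, which encodes an orphan nuclear receptor of naive stem cells, is added with the Tead letters ACATTCC in capitals.
Ahr, chr12:36327360-36327440, plus strand: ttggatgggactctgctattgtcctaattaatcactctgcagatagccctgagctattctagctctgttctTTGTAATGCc
Hnf4g, chr3:3666915-3666995, plus strand: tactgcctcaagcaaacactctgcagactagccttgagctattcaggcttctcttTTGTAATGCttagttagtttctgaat
Diap3, chr14:86795986-86796066, minus strand: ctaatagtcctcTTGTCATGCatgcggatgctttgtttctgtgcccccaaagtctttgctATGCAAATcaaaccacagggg
Nr5a2, chr1:139315121-139315201, plus strand: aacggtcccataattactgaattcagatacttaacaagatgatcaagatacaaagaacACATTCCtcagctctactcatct

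The run CAACCTGTGGGT was found within 50 bp of the summit, on either strand, in 59 of the 458 far intergenic peaks, 12.9% (9.95% to 16.3%), against 8.17% of all mm9 peaks. It was picked from these windows as one of the overlapping 12-base runs that tied for the highest count, so its share there is a description. In the classes that did not serve to pick it, it stood at 16.0% of intergenic peaks 10 to 50 kb from a 5′ end, 16.8% of gene body peaks, 9.25% of peaks at 1 to 10 kb and 0.576% of promoter peaks. The run thus stood in every distal class and not in the far peaks alone. None of the 916 windows centred 500 bp to either side of the far summits held it. Runs were ranked with matches in these flanking windows counted against them, so that absence is also a description.

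The core GGTCNCGAC was found in 65 far intergenic peaks (14.2%, 11.1% to 17.7%), against 8.72% of all mm9 peaks, and in none of the 916 flanking windows. Run and core occurred together in 50 of the far peaks (10.9%), which was not counted for the other classes. The run lay close to the summit: of the 60 far peaks with a run within 200 bp, 51 had its centre within 20 bp of the summit. The quartiles of that distance were 8.5 and 16.5 bp. The run was picked from windows of 50 bp to each side of these summits, which favours matches near them.

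**Figure D1:**
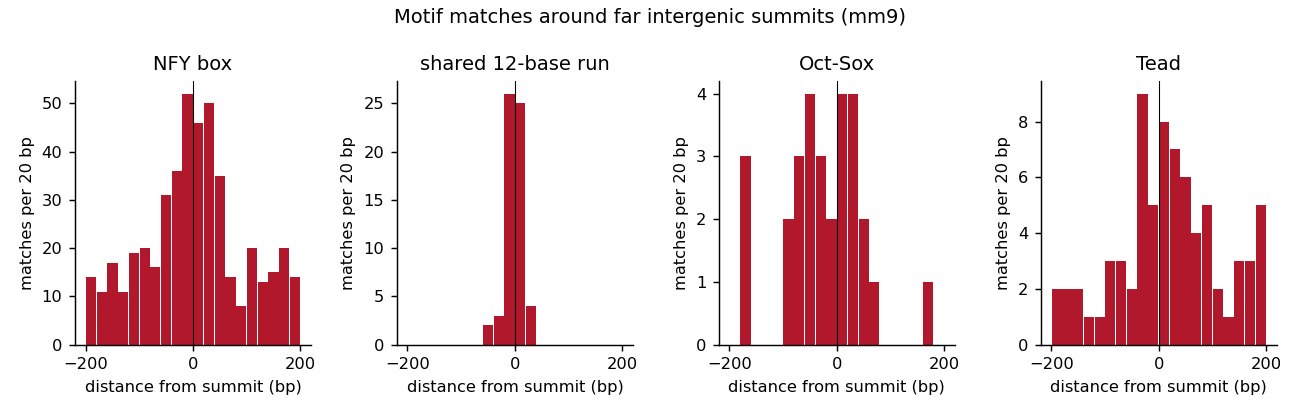
Matches per 20 bp bin (y axis) by distance of the match's centre from the far intergenic summit in bp (x axis), on mm9, for 4 motifs. The shared run was picked from windows within 50 bp of these summits. The shared run occupies a narrow band with 26 and 25 matches in the bins next to the summit and 0 beyond 60 bp, whereas NFY boxes peak at the summit over a level of 11 to 20 matches per bin beyond 100 bp to either side.

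The run was more frequent among strong peaks. It stood in 23 of the 92 strongest far intergenic peaks of the mm9 list (95% interval 16.6% to 35.1%) and in 5 of the 92 weakest (5.43%, 1.79% to 12.2%). The median mm9 signal was 54.9 in the 59 peaks with the run and 42.8 in the 399 without it. Signals are as the authors' peak caller wrote them, without a stated unit, and were set side by side within 1 list at a time. G+C was 42.8% (median within 100 bp of the summit) with the run and 47.3% without it.

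To read the same contrast in each replicate, the mm10 peaks were set beside mm9 peaks that had the same nearest gene, side and distance to within 200 bp, which paired 242 of the 963 members. In replicate 1 the median signal was 22.7 in the 33 paired peaks with the run and 18.8 in the 209 without it. In replicate 2 the values were 26.0 with the run and 18.8 without it. Both replicates thus had the higher median at peaks with the run. Paired members were stronger than the rest with or without the run, since the medians of all members were 13.4 in replicate 1 and 13.99 in replicate 2. The share among the strongest peaks of both replicates was 87.9% with the run and 73.7% without it.

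CCAAT was found within 50 bp of the summit in 122 of 458 far intergenic peaks (26.6%, 22.6% to 30.9%), against 38.2% of all mm9 peaks and 49.5% of promoter peaks. It stood at 28.5% in gene body peaks, in 189 of 630 intergenic peaks at 10 to 50 kb and at 33.6% in peaks at 1 to 10 kb, so the far share was the lowest of the 5 classes. The interval of the far share held the first 2 of these shares and not the 33.6%. In the flanking windows of the far peaks CCAAT stood at 13.4%. Over 100 kb from a 5′ end the share was 20.8% (55 of 265). CCAAT stood in 12 of the 59 peaks with the run, against 122 of all 458. At least 1 of both motifs stood in 169 far peaks (36.9%), a pooled share that was not counted for other peaks or flanking windows. The median mm9 signal was 47.0 with CCAAT and 43.0 without it.

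**Figure D2:**
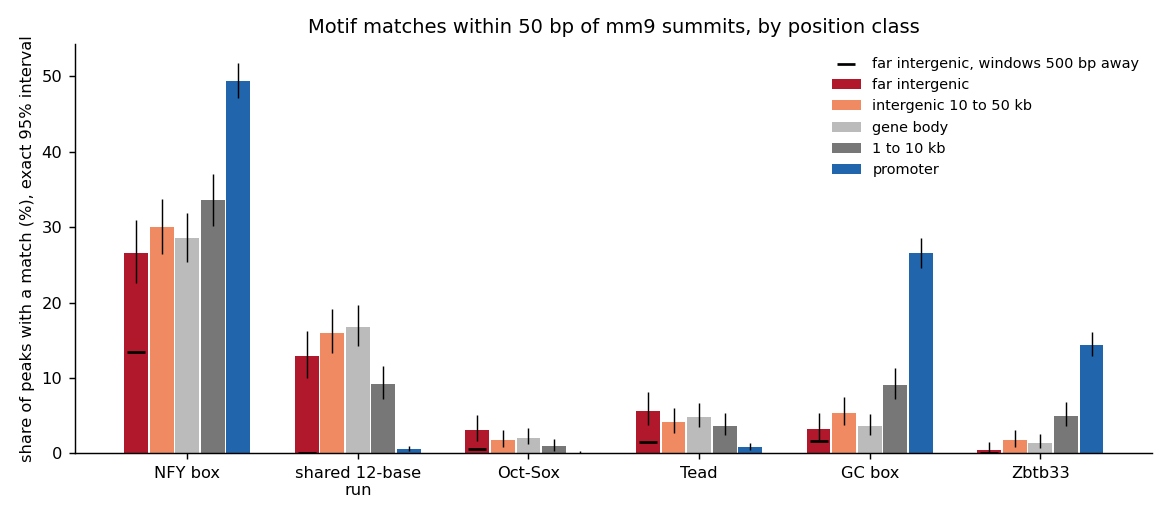
Share of mm9 peaks with a match within 50 bp of the summit (%, y axis) for 6 motifs (x axis) in the 5 position classes, with exact 95% intervals; black dashes give the windows 500 bp from far intergenic summits. Far intergenic peaks stand at 12.9% for the run, 3.28% for the GC box and 0.437% for Zbtb33, and promoter peaks at 0.576%, 26.5% and 14.4%.

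Motifs of pluripotency factors were present in a minority of the far peaks. Oct-Sox letters stood in 14 of 458 far intergenic peaks (3.06%, 1.68% to 5.08%), against 1.11% of all mm9 peaks, 0.105% of promoter peaks and 0.546% of the far peaks' flanking windows. Gene body peaks stood at 2.10% (1.21% to 3.39%) and intergenic peaks at 10 to 50 kb at 1.75% (0.875% to 3.10%), and both intervals overlapped that of the far peaks. The octamer ATGCAAAT also stood in 14 (3.06%), against 1.57% of all mm9 peaks and 0.983% of the far peaks' flanking windows. The Sox letters ACAATGG stood in 19 (4.15%), against 1.90% of all mm9 peaks and 1.97% of those flanking windows. Gene body peaks stood at 2.10% for the octamer and 2.89% for Sox letters, and intergenic peaks at 10 to 50 kb at 2.06% and 2.22%. The intervals of both classes overlapped those of the far peaks for each motif. At least 1 of the Oct-Sox, octamer and Sox letters stood in 46 far peaks. By strength, Oct-Sox letters stood in 8 of the 229 stronger and 6 of the 229 weaker far peaks, the octamer in 4 of the stronger and 10 of the weaker, and Sox letters in 5 of the stronger and 14 of the weaker, with overlapping intervals for each motif. Tead letters, bound by the TEAD factors of Hippo signalling, stood in 26 far intergenic peaks (5.68%, 3.74% to 8.21%), against 2.94% of all mm9 peaks. They stood in 4.86% of gene body peaks, 4.13% of intergenic peaks at 10 to 50 kb and 1.53% of the far peaks' flanking windows. The estrogen-related receptor letters TCAAGGTCA (Esrrb) stood in 7 far peaks (1.53%), against 0.908% of all mm9 peaks, 1.97% of gene body peaks, 1.59% of intergenic peaks at 10 to 50 kb and 0.0523% of promoter peaks. Tcf letters ATCAAAG stood in 1.75% of far peaks and 1.75% of their flanking windows, against 1.28% of all mm9 peaks. Stat letters TTCCNGGAA stood in 0.873% (0.238% to 2.22%), against 0.437% of those flanking windows and 0.576% of all. Klf letters CCACACCC stood in 2.18% (1.05% to 3.98%), against 0.983% of those flanking windows and 1.13% of all.

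Motifs of promoter peaks were rare. The palindrome TCTCGCGA, bound by Zbtb33, stood in 2 of 458 far intergenic peaks (0.437%) and in 14.4% of promoter peaks. The GC box GGGCGG stood in 3.28% of far intergenic and 26.5% of promoter peaks, and the ETS letters CCGGAAG stood in 1.31% of far intergenic and 8.74% of promoter peaks. The nearest classes were low as well. Gene body peaks stood at 1.45% for Zbtb33, 3.68% for the GC box and 1.31% for ETS. Intergenic peaks at 10 to 50 kb stood at 1.75%, 5.40% and 3.33% in the same order. Gata letters AGATAA, among the 24 motifs listed for the search, stood in 3.28% of the far summits and 3.14% of all mm9 summits, and in 6.44% of the flanking windows of far peaks and 4.46% of those of all peaks. The windows of far peaks were poor in CpG, close to those of gene body peaks and intergenic peaks at 10 to 50 kb. Median G+C within 100 bp was 46.3% in far intergenic and 53.2% in the other mm9 peaks, and the ratio of observed to expected CpG was 0.219 in far intergenic and 0.530 in the other peaks. Gene body peaks had 47.3% and a ratio of 0.228, and intergenic peaks at 10 to 50 kb had 47.8% and 0.260. Only 9 far intergenic peaks (1.97%, 0.902% to 3.70%) had G+C over 50% and a CpG ratio over 0.6, against 36.1% of all mm9 peaks and 72.9% of promoter peaks. For gene body peaks the share was 4.60% (3.22% to 6.34%), and for intergenic peaks at 10 to 50 kb 8.73% (6.64% to 11.2%).

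Among the strongest mm9 peaks, the windows at Gm6712 and BC002059 on chromosome 17 are near copies. They lie 229794 bp apart and matched at 214 of 225 aligned bases (95.1%). The signals were 391 and 170. How reads were divided between such copies was not tested. The peak at Glce, with G+C of 70.1%, lay 110 bp from an end of the non-coding gene AC123610.1.

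Turning to the mm10 members, they were sparse in the space that the rule left to them. The rule's territory covered 933 of 2398 Mb of autosomal span (38.9%) and held 1.03 far intergenic peaks per Mb, against 4.90 other peaks per Mb of the rest. The density ran from 0.479 per Mb on chromosome 14 to 1.62 per Mb on chromosome 13, where 82 of 324 optimal peaks (25.3%) were far intergenic. Chromosome 7 had 24 of 613 (3.92%). Chromosome 13 holds the Enc1 cluster described below, which gave 15 of its 82 members.

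The members lay at a median of 121924 bp from the nearest protein-coding 5′ end (quartiles 73990 and 236849 bp). In all, 589 lay over 100 kb away, 78 over 500 kb and 21 over 1 Mb. They lay upstream of the nearest gene in 544 cases and downstream in 419. The 2 farthest were 2414153 and 2357637 bp downstream of the 5′ end of Pcdh9, a protocadherin gene on chromosome 14, with signals of 30.5 and 27.7. In replicate 1 they had signals of 11.9 and 11.8, and in replicate 2 of 15.6 and 9.21. The next were at Pcdh17 (1976618 bp), Celf4 (1972121 bp) and Stim2 (1763469 bp), with signals of 30.2, 21.0 and 32.7. All 5 of these were in the conservative list.

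At the limit, the 3 members just inside lay 50037 bp from Brd1, 50097 bp from Mmrn1 and 50360 bp from Cdkn2aip, with signals of 21.4, 6.85 and 17.9. The 3 intergenic peaks just outside lay 49962 bp from Gc, 49897 bp from Mmrn1 and 49864 bp from Sbk1, with signals of 17.997, 21.0 and 110. Both Mmrn1 peaks overlapped each other and matched the same peak in each replicate, so the limit runs between overlapping peaks there.

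Far intergenic peaks were weaker than promoter peaks and close to the other distal classes. The median signal was 26.0 (quartiles 20.9 and 34.9, range 5.76 to 203) in the 963 far intergenic peaks and 30.2 (21.9 and 50.8) in the other 7171. In replicate 1 the medians were 13.4 in far intergenic and 16.3 in other peaks, and in replicate 2 they were 13.99 in far intergenic and 16.6 in other peaks. Intergenic peaks at 10 to 50 kb had 27.4, gene body peaks 26.7 and promoter peaks 40.1 in the optimal list. Of the 813 strongest optimal peaks 10 were far intergenic (1.23%, 0.591% to 2.25%), and of the 813 weakest 104 were (12.8%). Below the optimal list, 26.8% of the relaxed pooled peaks outside as many of the strongest as the optimal list holds were far intergenic.

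**Figure D3:**
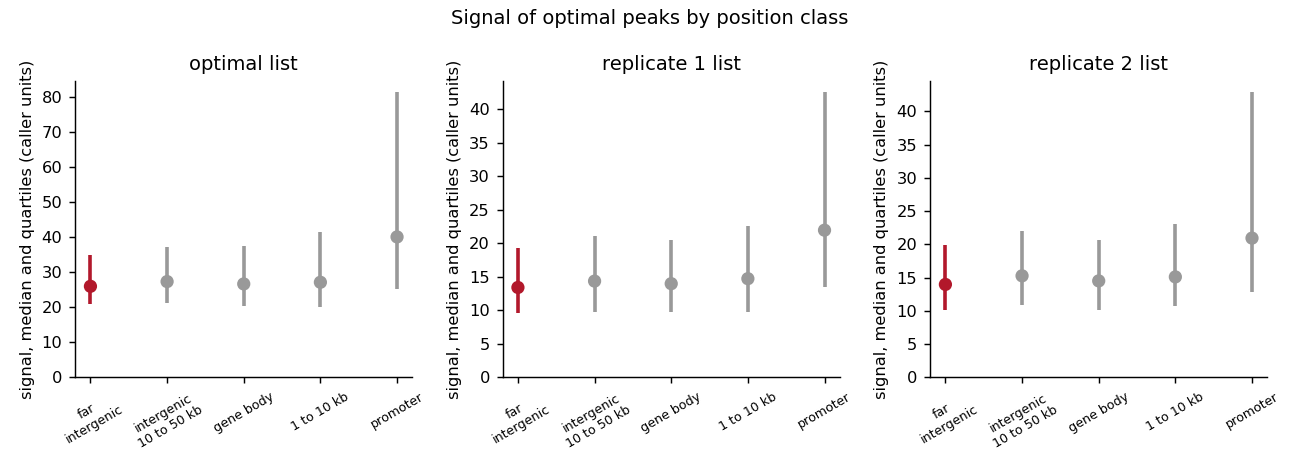
Median signal (point) and quartiles (line) of optimal peaks by position class, far intergenic in red at the left, in the optimal list and at the same peaks in each replicate's own list (y axis, the peak caller's units). Far intergenic medians of 26.0, 13.4 and 13.99 are the lowest of the 5 classes in each panel, and the promoter medians of 40.1, 22.0 and 21.0 are the highest.

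The strongest member lay 284368 bp upstream of Oxr1, an oxidation resistance gene, at mm10 chr15:41162998-41163266. Its signal was 203 in the optimal list, 87.0 in replicate 1 and 114 in replicate 2, where it ranked 376 and 172 among 300000 peaks. It was paired with the Oxr1 sequence shown above. Next came a peak 74542 bp from the 5′ end of Rab10 at chr12:3235336-3235551, 364 bp from an end of the antisense lncRNA gene Rab10os, with a signal of 170 (91.0 in replicate 1 and 77.6 in replicate 2). The third lay at chr5:148745097-148745264 near Katnal1 with 138 (61.2 and 75.4 in replicates 1 and 2), 2053 bp from an end of the lncRNA gene 2210417A02Rik. The Ubl3 summit shown above lay 2048 bp from the same lncRNA gene on mm9. The fourth lay near Spdl1 at chr11:34899450-34899667 with 128 (61.6 and 66.5), 452 bp from the small nuclear RNA gene Gm25799.

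The other 8 of the 12 strongest had optimal signals of 93.0 to 126. They lay nearest to Zfp958, Slc1a3 (a glutamate transporter gene), Prss12, Lcp2, Zfp36l1, Zfp281, Arid1b (a subunit of the BAF remodelling complex) and Nxnl2. All 12 were in the conservative list and had a match in each replicate. Replicate 1 signals of the 12 ran from 30.2 at Zfp281 to 91.0 at Rab10, and replicate 2 signals from 45.8 at Prss12 to 114 at Oxr1. Of the 12, 7 were paired with an mm9 sequence: Slc1a3, Zfp36l1, Zfp281 and Arid1b carried the run, Oxr1 the core alone, and Spdl1 (Ccdc99 in the mm9 annotation) and Lcp2 CCAAT without the run.

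Far intergenic peaks recurred less often than promoter peaks. In the conservative list they stood close to the other distal classes, and among the strongest peaks of both replicates they stood below them. Of the 963 members, 640 overlapped a peak of the conservative list (66.5%, 63.4% to 69.4%), against 72.4% of all optimal peaks. The share was 66.6% of peaks at 1 to 10 kb, 67.7% of gene body peaks, 68.6% of intergenic peaks at 10 to 50 kb and 82.0% of promoter peaks. Among the strongest peaks of replicate 1, as many as the optimal list holds, there were 621 (64.5%), against 70.7% of all, and among those of replicate 2 there were 630 (65.4%), against 72.1% of all. Both replicates held 401 (41.6%, 38.5% to 44.8%), against 52.9% of all optimal peaks, 44.4% of gene body peaks, 46.3% of intergenic peaks at 10 to 50 kb and 46.8% of peaks at 1 to 10 kb. The interval of the far share held only the gene body value of these. Neither replicate held 113 (11.7%), against 10.1% of all. Every member had a match in the relaxed list of at least 1 replicate, with 22 unmatched in replicate 1 and 14 in replicate 2. The Spearman rank correlation between replicates was 0.192 over the 963 far intergenic peaks, 0.299 over gene body peaks, 0.341 over intergenic peaks at 10 to 50 kb and 0.737 over promoter peaks. Over the 366 far intergenic peaks in the stronger 4067 of the optimal list it was 0.0710. The points of each value share both libraries and the threshold that made the list.

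At like signal the difference in the share among the strongest peaks of both replicates was small. In the lowest quartile of the optimal list (signal 5.74 to 21.7), 11.2% of far intergenic and 12.0% of other peaks were among the strongest of both replicates. In the next quartile (21.7 to 29.6) the shares were 23.2% of far intergenic and 24.0% of other peaks. In the one above it (29.6 to 48.1) they were 74.8% of far intergenic and 76.8% of other peaks, and in the highest 98.0% of 100 far intergenic and 99.4% of 1934 other peaks. The interval of the far intergenic share held the other peaks' share in each quartile. Promoter peaks alone stood at 16.9%, 25.1%, 77.8% and 99.5% from the lowest to the highest quartile. The promoter share of the lowest quartile lay above the far interval (7.78% to 15.4%), and the far intervals above it held theirs. In the conservative list the promoter share of the lowest quartile, 39.4%, also lay above the far interval (25.8% to 36.8%). With 100 to 311 far peaks a quartile, a difference of several percentage points would not be seen.

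**Figure D4:**
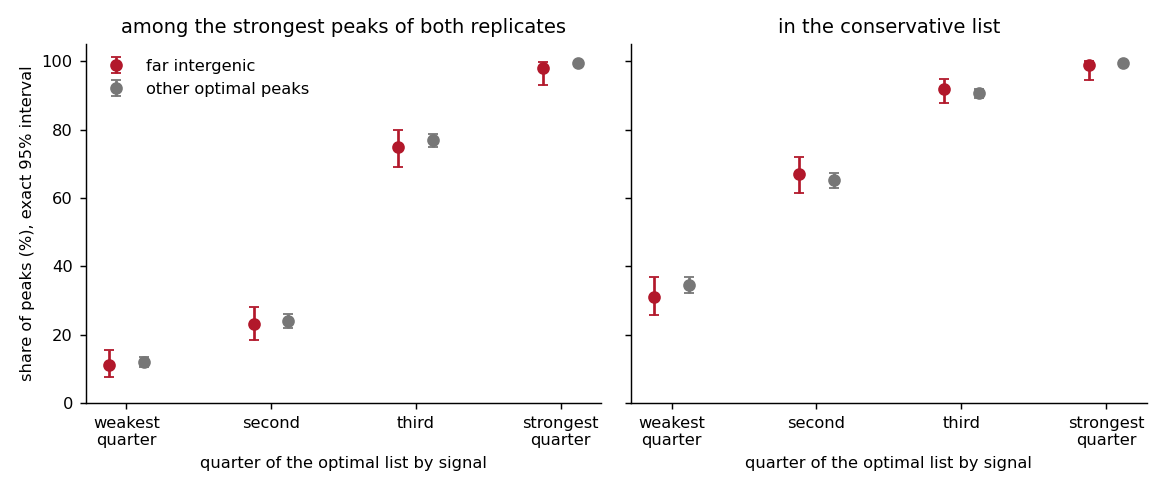
Share of optimal peaks (%, y axis, exact 95% intervals) among the strongest peaks of both replicates (left) and in the conservative list (right) by signal quartile of the optimal list (x axis), for far intergenic peaks in red and other peaks in grey. In each quartile the red interval holds the grey point, and the shares climb from 11.2% to 98.0% for far intergenic peaks in the left panel.

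**Figure D5:**
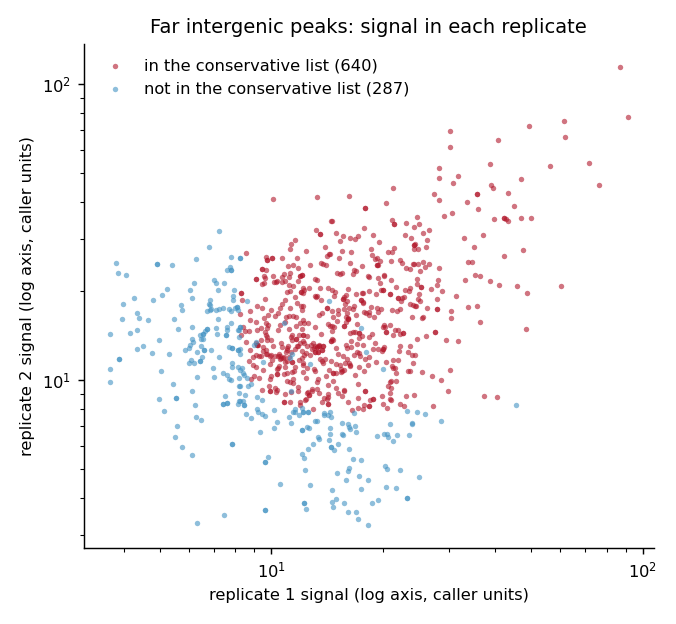
Signal of the far intergenic peaks in replicate 1 (x axis) and replicate 2 (y axis), both log axes in the peak caller's units, for the 927 members matched in both. Red points (640) overlap the conservative list and blue points (287) do not; the cloud has little slope at low signals and the strongest peaks lie high in both replicates.

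The largest disagreements between replicates were at Rgs6, Snx16 and Enc1. The peak 53471 bp upstream of Rgs6 had a signal of 32.1 in replicate 1 (rank 1459) and no match in replicate 2, and the one at Snx16 had 25.6 in replicate 1 and none in replicate 2. A peak 347177 bp downstream of the Enc1 5′ end had no match in replicate 1 and 25.1 in replicate 2 (rank 2098). None of the 3 was in the conservative list, although their optimal signals of 25.9 to 26.6 lay close to the members' median.

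Non-coding genes are also found in the space between protein-coding genes. A summit lay within 1 kb of an end of a non-coding RefSeq gene in 10.5% of far intergenic peaks (8.62% to 12.6%), against 10.7% of all optimal peaks, so this share was at the level of the list. Of these peaks, 87 lay at lncRNA genes, 10 at pseudogenes, 2 at transcribed pseudogenes, 1 at a small nucleolar RNA gene and 1 at a small nuclear RNA gene, and neighbouring peaks can share a gene. Inside a non-coding gene lay 198 far intergenic peaks (20.6%, 18.05% to 23.3%), against 10.5% of all optimal peaks, and 703 members met neither condition. Intergenic peaks at 10 to 50 kb, also outside protein-coding gene bodies, stood at 15.9% (13.8% to 18.3%) inside a non-coding gene. Gene body peaks stood at 6.70% and promoter peaks at 7.62%, so the share of all peaks is not a like comparison. Median signals were 26.8 at a non-coding end and 25.9 elsewhere.

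Of the members, 26 had their summit in a RefSeq start window, the 250 bases before to 50 after a gene's start. The rule leaves out summits near protein-coding 5′ ends, and all 26 windows belonged to lncRNA genes. Of them, 22 held CCAAT, against 36.0% of the 11588 lncRNA start windows and 37.4% of all 32851 windows of that length. Those 2 sets were taken whether or not a window held a CHD2 peak. Start windows with peaks of other classes were not counted, and 49.5% of mm9 promoter peaks held CCAAT within 50 bp of the summit. Whether CCAAT is particular to these windows was not tested. Windows are described from RefSeq on GRCm38.p6, both strands searched. Snhg8, host gene of a small nucleolar RNA, had a peak with signals of 119 in the optimal list, 76.2 in replicate 1 and 45.8 in replicate 2, its summit 219 bases before the start. The summit at 4930469K13Rik lay 84 bases before the start (signal 110, with 56.3 in replicate 1 and 53.1 in replicate 2), and that at AU020206 57 bases before it (82.0, with 31.9 and 49.0 in replicates 1 and 2). The summit at Gm40003 lay 56 bases before its start (48.3, with 21.1 and 27.2 in replicates 1 and 2). The stretches around 3 of these summits show the repeated boxes, with CCAAT or its complement ATTGG in capitals, on GRCm38.p6.
4930469K13Rik, chr11:34098578-34098698, minus strand: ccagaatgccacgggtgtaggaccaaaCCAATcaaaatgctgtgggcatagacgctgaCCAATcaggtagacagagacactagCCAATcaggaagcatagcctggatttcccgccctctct
AU020206, chr7:75782117-75782237, minus strand: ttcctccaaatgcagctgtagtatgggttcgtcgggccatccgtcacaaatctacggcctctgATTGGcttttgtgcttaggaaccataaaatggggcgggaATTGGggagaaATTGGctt
Gm40003, chr2:170673834-170673954, minus strand: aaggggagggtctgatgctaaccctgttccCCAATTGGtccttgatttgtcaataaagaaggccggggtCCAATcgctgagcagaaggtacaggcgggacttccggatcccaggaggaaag

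Some members came in chains, taken as optimal peaks whose summits follow each other within the stitching distance commonly used for super-enhancers. In such chains lay 298 far intergenic peaks (30.9%, 28.0% to 34.0%), against 38.7% of all optimal peaks. The share was 32.8% of gene body peaks, 34.7% of intergenic peaks at 10 to 50 kb and 35.8% of promoter peaks. Peaks at 1 to 10 kb stood apart at 55.9%. The interval of the far share held the gene body value only. Part of the chaining comes from optimal peaks that overlap one another, as 162 members did (16.8%), against 16.4% of all. Such neighbours can match the same replicate peak. With overlapping peaks merged to the strongest, 156 of 881 far intergenic peaks (17.7%) were chained, against 27.3% of all. Merging chains left 798 far intergenic loci, of which 125 held several members.

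The largest chains had 8 peaks each. One lay 110778 to 125285 bp upstream of Med13l, a subunit gene of the Mediator kinase module, with signals of 6.45 to 41.0. In replicate 1 the highest peak of this chain had 16.9 and in replicate 2 it had 23.4. The other lay in and beside Lncenc1, a lncRNA gene of naive stem cells, 250635 to 265142 bp downstream of the Enc1 5′ end, with signals of 8.72 to 36.2. The strongest of them had 17.4 in replicate 1 and 18.6 in replicate 2, whereas 4 of the 8 had no match in 1 replicate. Merging left 5 peaks at Med13l and 6 at Lncenc1.

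The members had 644 different nearest genes, 445 of them with 1 member, and 25 genes with at least 4 members took 128. Enc1 had 15, Med13l 10, and Hs6st1, Rybp and Adgrl2 6 each. Distance to the nearest gene does not show which gene a peak acts on. Of 34 genes of naive pluripotency, 7 were nearest to 24 members: Il6st, Jarid2, Klf4, Mycn, Nr5a2, Sox2 and Tbx3. Their median signal was 24.997, and 10 of the 24 were among the strongest of both replicates, close to the 41.6% of all members.

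Klf4, a core factor of naive pluripotency whose known stem cell enhancers lie downstream of the gene, had 4 members 54907 to 68089 bp downstream of its 5′ end. The strongest, at chr4:55475421-55475780, had a signal of 72.5, with 47.4 in replicate 1 and 27.6 in replicate 2. The one at 54907 bp had 34.0, with 19.3 in replicate 1 and 12.8 in replicate 2, and the other 2, which overlap, had 21.7 and 15.7 and were not among the strongest of both replicates.

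Sox2, whose stem cell expression depends on a distal enhancer cluster downstream, had 5 members. One lay 90737 bp upstream, 1123 bp from an end of the lncRNA gene Sox2ot, with a signal of 27.3 (14.96 in replicate 1 and 12.9 in replicate 2). The other 4 lay 95476 to 111423 bp downstream, with signals of 46.1, 26.8, 13.4 and 23.5 in order of distance. In replicate 1 these 4 had 24.4, 14.8, 5.15 and 20.5, and in replicate 2 they had 17.8, 19.2, 7.86 and 8.03. The 2 of them nearest to Sox2 were among the strongest peaks of both replicates, and the other 2 were not.

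Nr5a2 had 3 members upstream, the strongest at 458156 bp with a signal of 61.9 (40.9 in replicate 1 and 20.9 in replicate 2), paired with the Tead-bearing sequence shown above. Jarid2, a cofactor of Polycomb repressive complex 2, had 4 members 51114 to 55264 bp upstream with signals of 15.8 to 29.9, of which 1 was in the conservative list. Tbx3 had 4 between 83101 and 360376 bp upstream, with signals of 20.8 to 26.4.

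The other gene lists gave fewer members. Of 16 genes of FGF-ERK feedback, Dusp4, Dusp5, Dusp6, Etv1 and Phlda1 were nearest to 8 members. The strongest lay 198357 bp downstream of the 5′ end of Dusp6, an ERK phosphatase gene, with a signal of 64.1 (48.6 in replicate 1 and 14.9 in replicate 2), followed by one at 205955 bp with 39.98 (11.3 and 27.7 in replicates 1 and 2). These 2 neighbours ranked in opposite order in the replicates. The next was at Etv1 with 34.8.

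Of 33 early lineage regulators, 6 were nearest to 7 members, led by Irx3 (36.3), Eomes (29.7) and Tfap2c (28.0). Of 19 Nodal, BMP and Wnt targets, Id4 alone had members, 2 overlapping peaks with signals of 15.1 and 9.98 at the lncRNA gene Gm52029. Of 35 genes of cell adhesion and axon guidance, 11 were nearest to 15 members, led by Cdh2 (47.1 and 31.5) and Pcdh7 (38.2). Far intergenic peaks made up 15 of the 22 optimal peaks of any class at this list and 24 of 88 at the pluripotency genes. They made up 8 of 45 at the FGF-ERK genes and 7 of 25 at the early lineage regulators. At the Nodal, BMP and Wnt targets they made up 2 of 17, and of all optimal peaks 11.8%. The intergenic space around the listed genes was not measured, so the list shares and the 11.8% are not a like comparison. Overlapping peaks were counted separately.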

How the data were processed

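CHD2 ChIP-seq peaks were analysed as deposited. Signal is the peak caller's value per peak in the lists that the authors deposited, and the summit offset is a position in bp, in the narrowPeak layout that the deposited descriptions name. Both thresholded mm10 lists came from an irreproducible discovery rate (IDR) procedure on the relaxed lists of both replicates and their pool, per the deposited descriptions; which peak caller and aligner were run, and their versions, is not given in the sources used here. Read depth is unknown, so no depth-based interval was given.

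The members and lists were chosen with earlier results of these data known. The shared run, its core, the merging of overlapping peaks, the pairing of builds and the comparison by signal quartile were chosen after the data were seen. Summits were placed on RefSeq GRCm38.p6 genes, with a strand for 20355 of 20661 protein-coding autosomal genes. Replicate values are those of the peak overlapping by at least 1 bp in each list of 300000 peaks, the strongest 8282 of which were taken as the strongest. The conservative list held 7530 peaks. Optimal peaks off the numbered autosomes (148 of 8282) were left out. Sequence was read from mm9 with GENCODE M1 genes, because no mm10 genome was used here, and start windows came from RefSeq. Repeat annotation was not used here. Named members were the 12 strongest, the 5 farthest, the 3 strongest at a non-coding end, the 3 strongest per gene list, the 3 with the largest rank difference, 3 to each side of the limit, the 2 largest chains and the 6 strongest on mm9; other peaks at Klf4, Sox2, Nr5a2, Jarid2, Tbx3, Enc1 and the start windows, and the other printed sequences, were named after their values were seen. Shares have exact 95% Clopper-Pearson intervals. Python 3.11.15, numpy 2.4.6, pandas 2.3.3, scipy 1.17.1, pysam 0.24.0, Biopython 1.88, samtools 1.23.1 and matplotlib 3.10.9 were used, and the calculations were tested on simulated data.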

Additional observations from a re-analysis of the deposited data

How the results depend on the processing

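Of 59 alternative values, 34 stayed within the tolerance, 25 moved and 0 reversed. The tolerance was the exact 95% interval for a share, 0.0135 for the signal ratio (its spread between replicates), 0.005 for the correlation and 1 percentage point for G+C. With a limit of 100 kb, far intergenic peaks made up 7.24% of the optimal list and 5.87% of the mm9 list, their median signal was 0.857 of that of all peaks (0.880 at 50 kb), the replicate correlation was 0.154, 8.15% lay at a non-coding end and 20.8% held CCAAT. In the stronger 4067 optimal peaks, the far share was 8.999%, the signal ratio 0.804, the correlation 0.0710, and 93.7% were in the conservative list, 81.1% among the strongest of both replicates and 7.92% in chains. If any gene counted, coding or not, 4.67% of peaks stayed far. In the conservative list 27.4% were chained. An overlap of 50% of the shorter peak left 38.3% among the strongest of both replicates. Merging overlapping peaks, an alternative chosen after seeing the data, gave a signal ratio of 0.861 and 17.7% in chains. Taking either flanking gene put 9.55% of members at listed genes, against 5.82% with the nearest. Windows of 100 bp to each side gave 33.4% for CCAAT, 5.24% for Oct-Sox and 8.73% for Tead. Without 1 replicate, the signal ratio was 0.844 to 0.863, the chained share 20.3% to 22.6%, the far share 11.4% to 12.1% and the share at a non-coding end 9.86% to 10.3%. No paired analysis was possible because the series has 1 group. The peak lists give no read counts, so weak peaks cannot be weighed by depth, and mm9 and mm10 values stand on different lists.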
